A study of Homo sapiens with 4 samples.

Results

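The immediate early transcription factor genes and the feedback genes of ERK signalling were examined in RWP-1 cells with and without rGAL1. Members were taken by gene symbol from the platform annotation: the FOS, JUN, EGR, IER and KLF transcription factor and early response genes, the DUSP phosphatases, the Sprouty genes and the ETV genes of the ETS family. This gave 67 of the 14884 genes that carried a single symbol. Where a gene had several probe sets, the one with the highest mean over the 4 arrays represented it. The rule uses symbols and the mean level. They fell into 13 immediate early factors, 24 phosphatases, 3 Sprouty genes, 8 ETS factors and 17 KLF factors, plus 2 that match by symbol alone. The NR4A and SPRED genes, EGR2 and SPRY1 were not analysed here.

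RWP-1 is an established human pancreatic cancer cell line. The rGAL1 group (n = 2 arrays) received rGAL1, taken here to mean recombinant galectin-1 (galectins are lectins that recognise galactose residues on cell surface glycans). The Ctrl group (n = 2 arrays) received no treatment. The labels state no dose, time or vehicle. Nor do they state whether replicate arrays stand for independent cultures, so the p-values rest on a spread that may be purely technical. As bulk RNA was measured, a difference in some cells and a smaller one in all cells cannot be told apart. For the array rGAL1 2, the treatment field reads as control, whereas its title, its source name and the design text place it in the rGAL1 group, where it was kept.

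ERK is the last kinase of the RAS, RAF and MEK cascade. Growth factor receptors and other surface signals activate it. Active ERK phosphorylates transcription factors at the promoters of immediate early genes such as FOS and EGR1, whose transcripts appear within minutes of a stimulus and disappear again soon after. Slower ERK targets include the feedback genes: DUSP phosphatases remove phosphate from ERK and its relatives, Sprouty proteins restrain signalling between receptor and RAF, and the ETS factors ETV1, ETV4 and ETV5 carry the transcriptional output. A single time point thus samples early and sustained genes at different stages of a response.

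No member passed the test. Values are on the log2 scale of RMA, and differences are rGAL1 minus Ctrl on that scale. At an adjusted p under 0.05, limma called 0 of 67 members, and 0 of all 53617 probe sets (0%). At an unadjusted p under 0.05 it again gave 0 of 67 members, where 444 of the 14884 named genes (2.98%) were below that threshold, and 5.24% of all probe sets. That count of members was 1 (ETV5) in a fit without dim probe sets, where 4.81% of named genes were under the threshold, and 4 (FOSL1, SPRY2, DUSP8 and ETV5) with a variance prior that follows intensity, where 4.31% were. The smallest unadjusted p of a member was 0.0588, for ETV5 (adjusted p = 0.919). Differences of the members lay between -0.28 and 0.27 log2 units, and their standard error (SE) had a median of 0.11.

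The intervals describe how large a difference these arrays leave possible, with rGAL1 2 kept in the rGAL1 group. They rest on the same spread as the p-values, which may be purely technical, so they do not bound the difference between independent cultures. The 95% interval, taken from the moderated fit gene by gene and not adjusted for the number of genes, lay within 2-fold in either direction for 67 of 67 members. It lay within 1.5-fold for 64 of 67 (95.5%), against 86.3% of all named genes. DUSP21, KLF8 and KLF12 were the exceptions. Among genes above the median of all probe set means in both groups, the count was 60 of 61 members (98.4%), against 93.2% of such named genes. In 46 of 67 members (68.7%) the 2 arrays of at least 1 group lay farther apart than the group means did, and this held in 75.1% of all named genes.

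Both rGAL1 arrays lay above both Ctrl arrays in 16 members and below both in 9. Among all named genes 20.2% were separated in the higher direction and 17% in the lower, 37.2% in all. The 25 separated members of 67 make 37.3%, a share near that background. Over the members the median difference was 0.025 log2 units, with 39 higher and 28 lower, beside 0.0056 over all named genes. Counting rGAL1 2 as a control, after its treatment field, moved the difference by over 1.5 times in 12 of the 25 separated members and turned the sign in 0. FOSB then came to 0.0066, DUSP5 to 0.015, DUSP10 to -0.0071, DUSP19 to 0.0065 and ETV4 to -0.034, and the sizes of the other 7 lay between 0.050 (DUSP2) and 0.15 (ETV5).

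The array medians were 4.69 to 4.72, and pairs of arrays differed over the whole table with an SD of 0.27 to 0.30, whether or not they shared a group. Of the epithelial markers, 7 were named (among them KRT18, KRT19 and EPCAM), and all 7 had means above the dim level, the median of all probe set means (4.70). Their means ran from 4.98 to 12.4 in rGAL1 and from 5.36 to 12.4 in Ctrl. The fibroblast markers LUM and DCN lay below that level, at 3.27 and 3.09 in rGAL1 and at 3.37 and 2.91 in Ctrl. Markers of other cell types were not all below it: 2 of 3 named acinar, 2 of 3 endocrine, 1 of 3 endothelial and 1 of 2 leukocyte genes lay above. The highest of each type were CEL (4.87 in rGAL1, 5.04 in Ctrl), SST (5.36 in rGAL1, 5.39 in Ctrl), VWF (4.83 in rGAL1, 4.85 in Ctrl) and CD14 (5.04 in rGAL1, 4.94 in Ctrl). Of the members, 61 of 67 had means above the dim level in both groups. DUSP19, DUSP21, ETV3L, KLF8, KLF17 and KLF3-AS1 did not.

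The promoters of early response genes carry short elements that their regulators bind, and 5 are shown because their genes are among the members described below: DUSP8 and SPRY2, with larger positive differences, DUSP1 and IER2, with negative ones, and EGR1, the textbook target of ERK. Each of the 5 holds a match to an element named below. Windows without a match, such as that of IER5, are not printed. Sequences are from RefSeq (GRCh38.p14), 250 bases before to 50 after the start site, 5′ to 3′ on the gene's strand. Capitals mark matches, on either strand, to the CArG box (bound by SRF), the CRE TGACGTCA (bound by CREB and ATF factors), the AP-1 site TGANTCA, the ETS site CCGGAAG and the EGR site GCGNGGGCG.
DUSP8 (chr11:1572222-1572521, minus strand): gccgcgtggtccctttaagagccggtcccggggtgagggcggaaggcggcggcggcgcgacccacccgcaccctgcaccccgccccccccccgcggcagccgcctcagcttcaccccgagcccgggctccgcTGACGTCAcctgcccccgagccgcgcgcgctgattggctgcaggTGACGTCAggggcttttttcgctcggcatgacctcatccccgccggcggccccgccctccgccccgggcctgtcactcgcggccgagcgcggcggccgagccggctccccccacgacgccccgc
SPRY2 (chr13:80341077-80341376, minus strand): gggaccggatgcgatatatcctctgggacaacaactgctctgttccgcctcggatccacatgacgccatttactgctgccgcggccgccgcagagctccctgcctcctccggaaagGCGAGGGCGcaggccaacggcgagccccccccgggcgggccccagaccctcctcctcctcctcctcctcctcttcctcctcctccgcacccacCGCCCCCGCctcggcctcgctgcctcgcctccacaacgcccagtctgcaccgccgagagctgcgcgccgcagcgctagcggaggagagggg
EGR1 (chr5:138465229-138465528, plus strand): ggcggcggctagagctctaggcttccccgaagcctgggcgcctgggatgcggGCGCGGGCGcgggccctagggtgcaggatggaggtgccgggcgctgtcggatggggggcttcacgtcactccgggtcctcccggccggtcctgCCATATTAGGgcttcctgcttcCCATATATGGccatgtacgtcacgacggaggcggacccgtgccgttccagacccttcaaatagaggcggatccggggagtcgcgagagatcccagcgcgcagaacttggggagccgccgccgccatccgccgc
DUSP1 (chr5:172771146-172771445, minus strand): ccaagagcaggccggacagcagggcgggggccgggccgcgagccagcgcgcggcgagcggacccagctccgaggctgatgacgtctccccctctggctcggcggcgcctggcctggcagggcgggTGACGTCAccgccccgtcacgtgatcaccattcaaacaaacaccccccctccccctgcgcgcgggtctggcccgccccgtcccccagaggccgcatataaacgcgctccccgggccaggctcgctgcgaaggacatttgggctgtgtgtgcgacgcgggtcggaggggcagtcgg
IER2 (chr19:13150161-13150460, plus strand): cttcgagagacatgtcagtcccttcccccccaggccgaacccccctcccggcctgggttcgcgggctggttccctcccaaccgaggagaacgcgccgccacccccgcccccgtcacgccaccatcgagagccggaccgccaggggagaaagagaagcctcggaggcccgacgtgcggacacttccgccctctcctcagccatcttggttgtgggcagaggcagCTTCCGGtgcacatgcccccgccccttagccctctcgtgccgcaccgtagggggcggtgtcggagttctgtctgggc

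EGR1 held CArG boxes starting at -105 and -83 from its start site, and was the 1 member of 52 with a promoter entry to hold one (1.92%, against 1.29% of 27305 promoter windows of this length). DUSP8 held CREs at -118 and -74, and DUSP1 held one at -125. With JUND and ETV2 that made 4 of 52 members (7.69%, against 1.98% of all windows). The ETS site, in IER2 at -27, was found in 3 of 52 members (5.77%, against 10.7%) and the AP-1 site in 1 (1.92%, against 7.76%). SPRY2 held EGR sites at -134 and -41, and 17 of 52 members held at least 1 (32.7%, against 9.28%). The median GC content was 68.8% in the members' windows and 58.3% in all windows, and its part in the share of this GC-rich site was not tested. Of the separated members, FOSL1, IER3, DUSP4, DUSP5 and ETV5 (higher in rGAL1) and ETV4 (lower) had no entry. Among those with an entry, an EGR site stood in 6 of 11 with higher values in rGAL1 and in 1 of 8 with lower values. A CRE stood in 2 of the 11 and 1 of the 8, an ETS site in 0 and 1, a CArG box in 1 and 0, and an AP-1 site in 0 of each. This is a description of letters in these windows, with no test.

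Among the FOS and JUN genes, which encode the subunits of the AP-1 factor, FOSL1 had the largest difference. FOSL1 encodes FRA-1, the FOS relative that accumulates under sustained ERK activity, because phosphorylation by ERK stabilises the protein and because it promotes its own transcription. FOSL1 measured 9.15 and 9.09 on the rGAL1 arrays, against 8.98 and 8.84 on the Ctrl arrays. Both rGAL1 arrays thus lay above both Ctrl arrays, by 0.11 at the nearest. The difference was 0.21 (SE 0.11, 95% interval -0.076 to 0.49), or 1.16-fold, and did not pass (limma, adjusted p = 0.919). It was 0.14 without Ctrl 2 and 0.28 without Ctrl 1.

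FOS itself, the prototype of the family, measured 5.91 and 5.94 in rGAL1, against 5.82 and 6.04 in Ctrl. The rGAL1 arrays lay between the Ctrl arrays. Its difference was -0.0065 (95% interval -0.32 to 0.31), and the sign turned when the arrays were centred on their medians. A second, dimmer FOS probe set gave -0.0010. FOSB, a close relative that is induced together with FOS, measured 6.34 and 6.42 in rGAL1, against 6.31 and 6.29 in Ctrl, a difference of 0.084. Its groups were separated, by 0.037, and its dimmer probe set, at 0.16, had overlapping groups. FOSL2 had overlapping groups and a difference of 0.086.

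The partner genes of the JUN family had overlapping groups throughout. JUN, the main FOS partner, measured 7.19 and 7.16 in rGAL1, against 7.11 and 7.17 in Ctrl (difference 0.039). JUNB, which is induced early and often opposes JUN, measured 8.95 and 8.78 in rGAL1, against 8.87 and 8.91 in Ctrl (difference -0.027). JUND, the constitutively expressed member, differed by -0.045. In the 3 JUN genes, the 95% intervals together spanned -0.37 to 0.30.

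EGR1 encodes a zinc finger factor and is among the most direct ERK readouts, through the SRF and ELK1 complex at CArG boxes such as those printed above. EGR1 measured 9.01 and 9.02 in rGAL1, against 8.93 and 8.85 in Ctrl. The groups were separated, by 0.084. The difference of 0.13 (SE 0.10, 95% interval -0.14 to 0.39) did not pass, and the dimmer EGR1 probe set, with overlapping groups, gave 0.016. The relatives EGR3 and EGR4 each differed by 0.035, with overlapping groups.

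The IER genes were named for their early response to stimuli. IER3, which encodes a stress response protein that ERK phosphorylates, measured 10.48 and 10.42 in rGAL1, against 10.37 and 10.28 in Ctrl. Its groups were separated and the difference was 0.13 (95% interval -0.14 to 0.40). The annotation gives IER3 11 probe sets, which carry only 4 distinct sets of values, with differences from 0.12 to 0.14, so they are not independent measurements.

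IER5 and IER2 were separated in the other direction. IER5, a regulator linked to heat shock factor, measured 7.61 and 7.61 in rGAL1, against 7.72 and 7.76 in Ctrl (difference -0.13, 95% interval -0.38 to 0.13). IER2 measured 7.70 and 7.78 in rGAL1, against 7.78 and 7.97 in Ctrl (difference -0.13, 95% interval -0.44 to 0.17). The IER2 groups were separated by only 0.0024, and its difference was -0.040 without Ctrl 2 and -0.23 without Ctrl 1. Over the 13 immediate early factors the median difference was 0.035, with 8 higher and 5 lower, and 4 were separated in the higher and 2 in the lower direction (46.2% of the 13, against 37.2% of all named genes). That median ran from 0.0082 without rGAL1 1 to 0.067 without Ctrl 2.

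**Figure D1:**
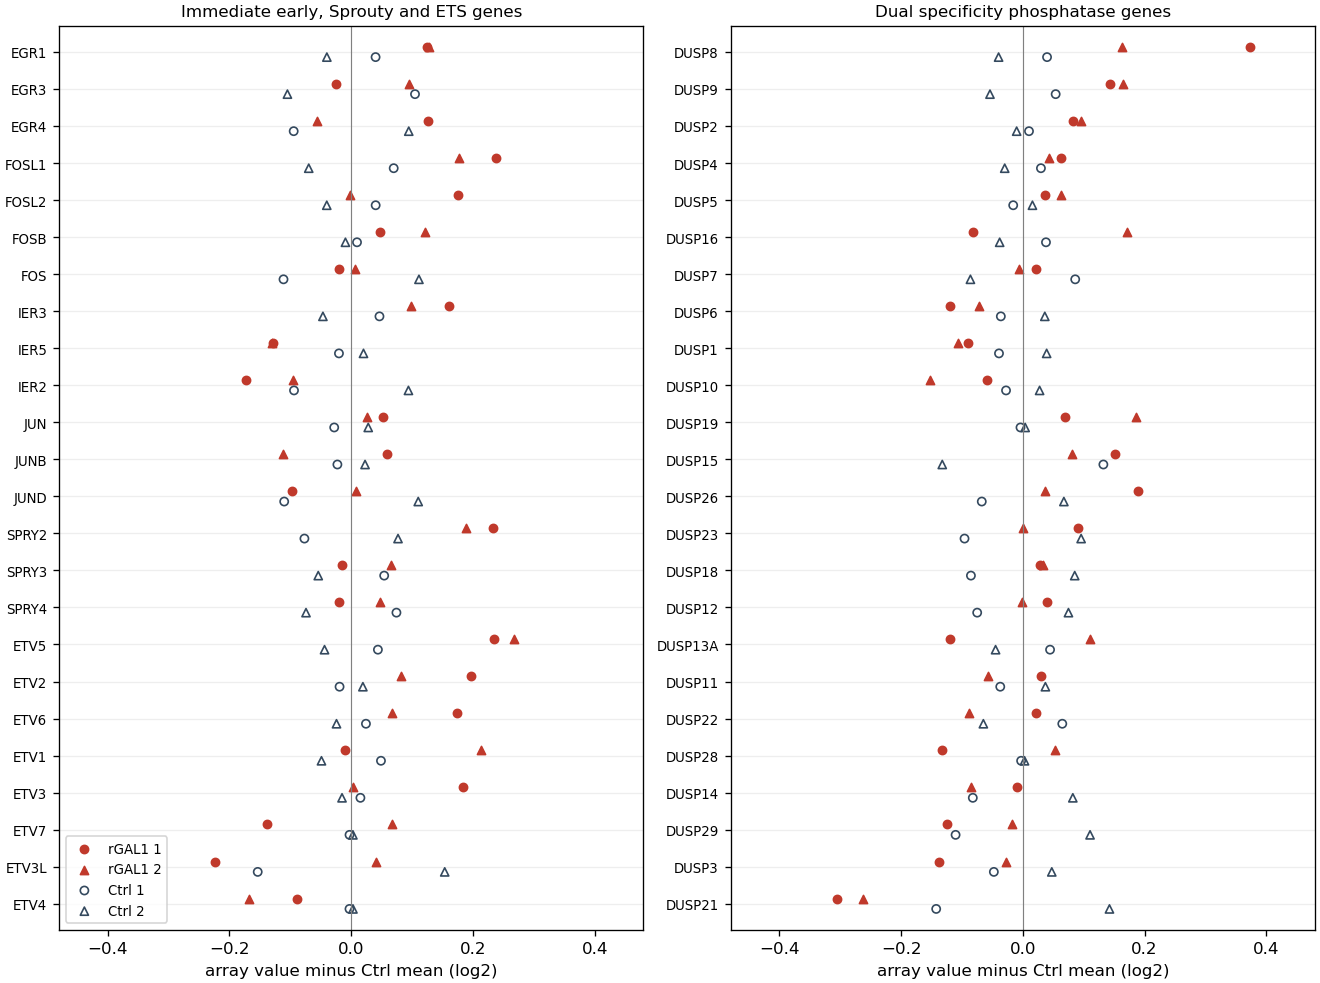
Each array's log2 value minus the Ctrl mean of the gene, for the immediate early, Sprouty and ETS genes (left panel) and the DUSP genes (right panel), with rGAL1 arrays as filled red points and Ctrl arrays as open points (circles for arrays numbered 1, triangles for those numbered 2). Most genes have interleaved points, and the separated ones, such as ETV5 and FOSL1, show gaps of 0.19 and 0.11 log2 units.

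The DUSP genes divide into the MAP kinase phosphatases, which dock on ERK, JNK or p38 and dephosphorylate them, and the atypical members, which lack the docking domain. Of all 24 DUSP genes, 6 were separated in the higher and 4 in the lower direction (41.7% of the 24, against 37.2% of all named genes). Of the 10 MAP kinase phosphatases, 5 were separated in the higher and 3 in the lower direction (8 of 10). Their median difference was 0.047, with 7 higher and 3 lower. Among the 14 atypical members, 1 was separated in each direction (14.3% of the 14) and the median was -0.0096. The difference between these sets was not tested.

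DUSP6 and DUSP5 are the ERK-specific pair, in the cytoplasm and the nucleus, and DUSP6 in particular is used as a gauge of ERK activity. DUSP6 measured 8.60 and 8.65 in rGAL1, against 8.69 and 8.76 in Ctrl. Its groups were separated, by 0.035, with lower values in rGAL1, and the difference was -0.096 (SE 0.10, 95% interval -0.36 to 0.17). DUSP5 measured 6.77 and 6.79 in rGAL1, against 6.72 and 6.75 in Ctrl. The groups were separated upward by 0.020 and the difference was 0.049. Its dimmer probe set gave -0.26, and DUSP5 was the 1 member whose probe sets differed in sign. DUSP7, the further ERK phosphatase of the cytoplasm, differed by 0.0074, a sign that also turned with quantile normalization.

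Of the inducible nuclear phosphatases, DUSP1 measured 7.12 and 7.10 in rGAL1, against 7.17 and 7.25 in Ctrl (difference -0.098). DUSP1 is itself an immediate early gene and acts on p38 and JNK as well as ERK. DUSP4, its close relative, measured 7.48 and 7.46 in rGAL1, against 7.45 and 7.39 in Ctrl (difference 0.053). DUSP2, best known from immune cells, measured 7.36 and 7.37 in rGAL1, against 7.29 and 7.27 in Ctrl (difference 0.089). The groups of these 3 genes were separated, DUSP1 downward and the others upward, by 0.051, 0.013 and 0.072 log2 units in that order. None of the 3 intervals excluded 0.

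The largest positive difference of the module was that of DUSP8. DUSP8, which prefers JNK and p38, measured 6.50 and 6.29 in rGAL1, against 6.17 and 6.09 in Ctrl. Its groups were separated by 0.12, while the rGAL1 arrays lay 0.21 apart. The difference was 0.27 (SE 0.12, 95% interval -0.048 to 0.58), or 1.20-fold, and did not pass (limma, adjusted p = 0.919). It was 0.16 without rGAL1 1 and 0.37 without rGAL1 2. DUSP9, which acts on ERK and p38, measured 7.50 and 7.52 in rGAL1, against 7.41 and 7.30 in Ctrl, a separated difference of 0.15. DUSP10, which also prefers p38 and JNK, measured 5.81 and 5.71 in rGAL1, against 5.84 and 5.89 in Ctrl, a separated difference of -0.11. DUSP16, a JNK phosphatase, differed by 0.044 with overlapping groups.

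Among the atypical members, the largest difference was that of DUSP21, which is dim. DUSP21 measured 4.38 and 4.42 in rGAL1, against 4.54 and 4.83 in Ctrl, a separated difference of -0.28 (95% interval -0.64 to 0.068). The Ctrl arrays lay 0.28 apart, and the value was -0.14 without Ctrl 2 and -0.43 without Ctrl 1. DUSP19, also dim, was separated upward at 0.13. DUSP15 (0.12), DUSP26 (0.11), DUSP23 (0.046), DUSP14 (-0.047), DUSP29 (-0.071) and DUSP3 (-0.083) had overlapping groups. DUSP3, also known as VHR, can act on ERK and JNK. The other 6 atypical members had overlapping groups and differences from -0.040 to 0.031. Over all 24 phosphatases the median was 0.013, with 13 higher and 11 lower, and it was -0.0057 without Ctrl 1.

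Of the Sprouty genes, SPRY2 had the largest difference. Sprouty proteins are made in response to receptor tyrosine kinase signalling and bind GRB2 and RAF, which limits further ERK activation. SPRY2 measured 7.54 and 7.49 in rGAL1, against 7.23 and 7.38 in Ctrl. Both rGAL1 arrays lay above both Ctrl arrays, by 0.11. The difference was 0.21 (SE 0.11, 95% interval -0.076 to 0.50), or 1.16-fold, and did not pass (limma, adjusted p = 0.919). It was 0.13 without Ctrl 1 and 0.29 without Ctrl 2.

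SPRY4 measured 7.53 and 7.60 in rGAL1, against 7.62 and 7.47 in Ctrl. The groups overlapped and the difference was 0.013 (95% interval -0.28 to 0.30), with a sign that turned with quantile normalization. SPRY3, dimmer, differed by 0.025, and its second probe set by 0.15. With 3 genes the class median was 0.025, and it turned to -0.029 without Ctrl 2 and to -0.016 without rGAL1 2.

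The ETS factors had the highest median of the classes, 0.097 over 8 genes, beside 0.0056 for all named genes. Of the 8, 5 were higher and 3 lower, and 3 were separated upward and 1 downward (50% of the 8, against 37.2% of all named genes). Without single arrays the median ran from 0.066 to 0.11, and it came to 0.056 when rGAL1 2 was moved to the controls. The difference between classes was not tested.

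ETV1, ETV4 and ETV5 form the PEA3 group, whose transcripts and proteins follow receptor and ERK signalling. ETV5 measured 5.82 and 5.85 in rGAL1, against 5.63 and 5.54 in Ctrl. Its groups were separated by 0.19, wider than the spread within either group. The difference was 0.25 (SE 0.10, 95% interval -0.014 to 0.52), or 1.19-fold, and it did not pass (limma, adjusted p = 0.919). It ran from 0.21 without Ctrl 2 to 0.30 without Ctrl 1, and came to 0.15 with rGAL1 2 counted as a control.

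ETV4, of the same group, was separated in the opposite direction. It measured 7.50 and 7.42 in rGAL1, against 7.59 and 7.60 in Ctrl, a difference of -0.13 (SE 0.10, 95% interval -0.39 to 0.13). ETV1 measured 4.79 and 5.01 in rGAL1, against 4.85 and 4.75 in Ctrl. Its groups overlapped and the difference was 0.10. The 3 PEA3 genes therefore gave 1 separated upward, 1 separated downward and 1 overlapping.

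Outside the PEA3 group, ETV6, a repressor known from leukaemia fusions, measured 7.63 and 7.53 in rGAL1, against 7.48 and 7.44 in Ctrl (difference 0.12). ETV2, a factor of endothelial and blood development, measured 5.51 and 5.39 in rGAL1, against 5.29 and 5.33 in Ctrl (difference 0.14). Both were separated upward. ETV3, a repressor, differed by 0.093, ETV7 by -0.036 and the dim ETV3L by -0.091, all with overlapping groups.

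**Figure D2:**
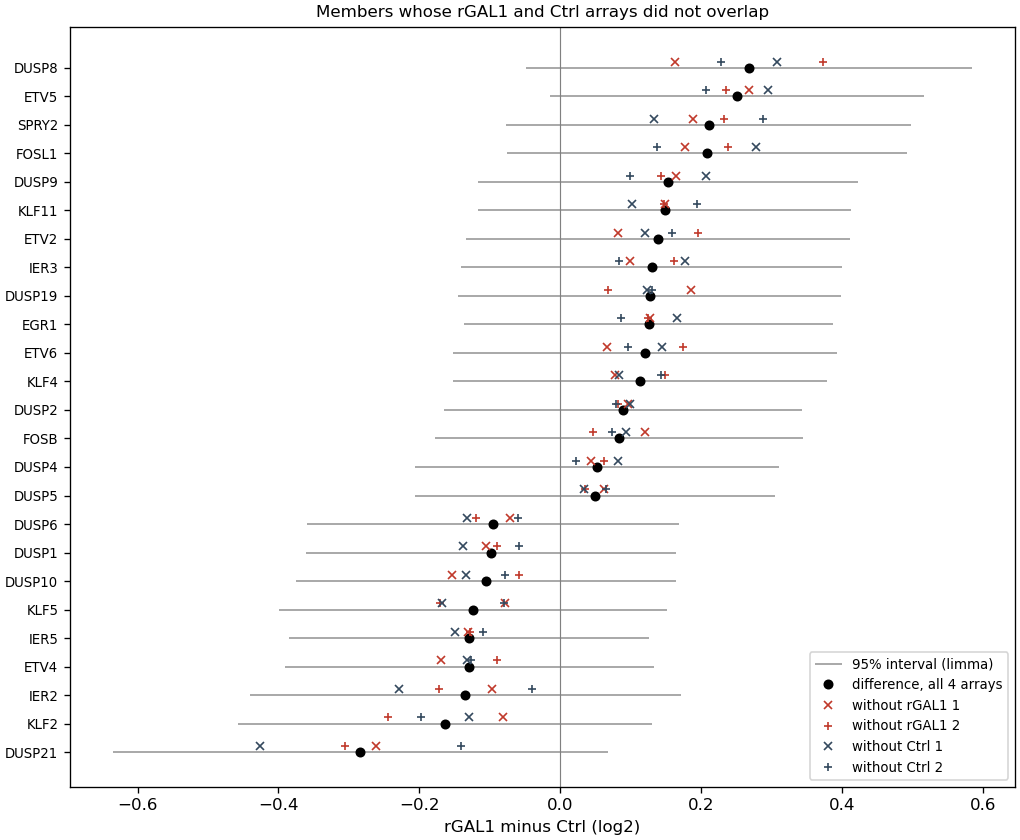
Differences (rGAL1 minus Ctrl, log2, black points) with 95% limma intervals (grey lines) for the 25 members whose arrays did not overlap between groups, with the value after leaving out each rGAL1 array (red crosses) or each Ctrl array (dark crosses). All 25 intervals include 0, and the differences run from -0.28 for DUSP21 to 0.27 for DUSP8.

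KLF factors are zinc finger proteins that bind GC-rich promoter sites, and several, among them KLF2, KLF4, KLF6 and KLF10, are early response genes. Of the 17, 9 were higher and 8 lower, 2 were separated upward and 2 downward (23.5% of the 17, against 37.2% of all named genes), and the median was 0.0094. KLF11 measured 7.14 and 7.14 in rGAL1, against 6.95 and 7.04 in Ctrl (difference 0.15). KLF4, a factor of epithelial differentiation, measured 6.93 and 6.86 in rGAL1, against 6.75 and 6.81 in Ctrl (difference 0.11). These 2 were the members separated upward.

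KLF2, a factor of endothelial quiescence that is also induced early, measured 6.31 and 6.47 in rGAL1, against 6.58 and 6.52 in Ctrl (difference -0.16). KLF5, a factor of epithelial growth, measured 7.53 and 7.62 in rGAL1, against 7.66 and 7.75 in Ctrl (difference -0.12, 95% interval -0.40 to 0.15). Both were separated downward. The dim KLF8 had the largest difference of the family, -0.27, and its groups overlapped. That value was -0.055 without Ctrl 1 and -0.48 without Ctrl 2.

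Both KLF12 and KLF8 varied more between the Ctrl arrays than between groups. KLF12 measured 6.94 and 7.11 in rGAL1, against 6.92 and 7.36 in Ctrl, with a difference of -0.12. KLF14 (-0.16) and the dim KLF17 (0.11) had overlapping groups. The other 9 KLF genes had overlapping groups and differences from -0.082 to 0.11. The KLF median was -0.13 without rGAL1 2 and -0.044 without Ctrl 1.

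**Figure D3:**
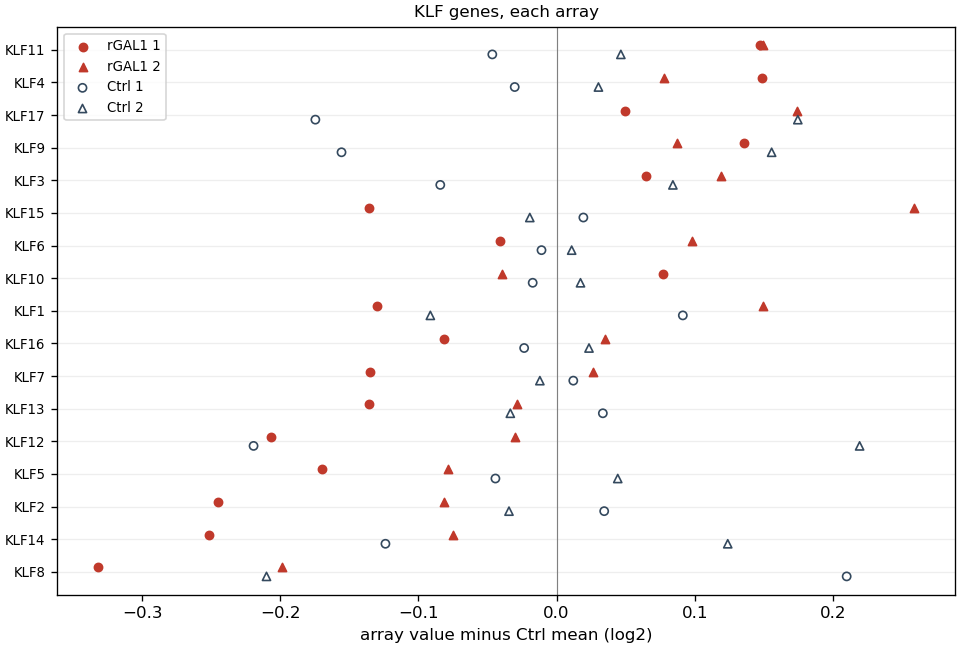
Each array's log2 value minus the Ctrl mean of the gene for the 17 KLF genes, with rGAL1 arrays as filled red points and Ctrl arrays as open points (circles for arrays numbered 1, triangles for those numbered 2). KLF11 and KLF4 are separated upward, KLF5 and KLF2 downward, and the Ctrl arrays of KLF8 and KLF12 lie 0.42 and 0.44 log2 units apart.

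The members matched by symbol alone were KLF3-AS1, an antisense transcript, with a difference of 0.049, and IER3IP1, an endoplasmic reticulum protein that is no early response gene, with a difference of -0.052. Both had overlapping groups. Leaving them out kept the median of the members at 0.025.

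**Figure D4:**
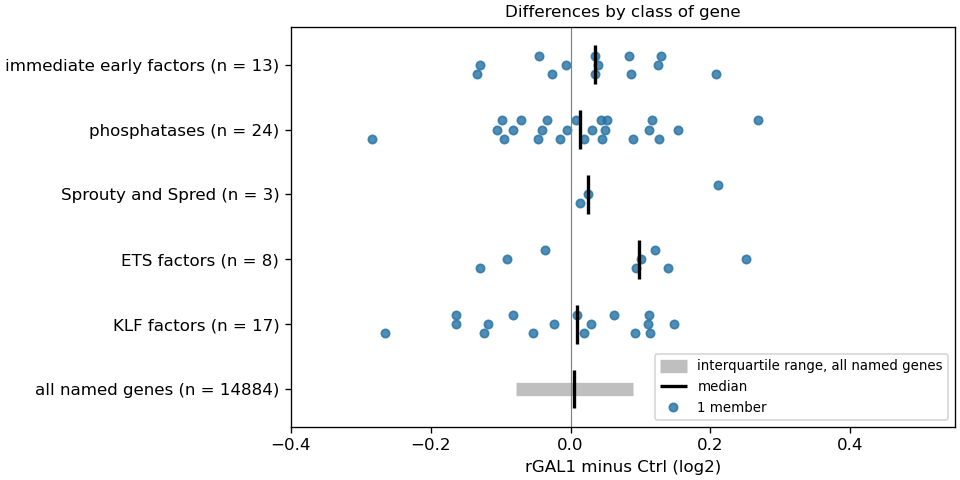
Differences (rGAL1 minus Ctrl, log2) of single members by class, with class medians as black bars and the interquartile range of all 14884 named genes as a grey bar (-0.078 to 0.089). Class medians run from 0.0094 for the KLF factors to 0.097 for the ETS factors.

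Other genes of the route were taken from 3 lists, which were chosen with earlier results of these data known. Of their 79 genes, 42 were among the named genes. Of the RAS to ERK cascade, 16 genes were measured, 8 higher and 8 lower, with a median of 0.0048 and 5 separated (31.2%). MAP2K1, which encodes MEK1, differed by -0.034 and MAPK3, which encodes ERK1, by 0.036. HRAS (0.13) and NF1, the RAS inhibitor neurofibromin (0.14), had the highest values in that list, and both were separated. HRAS came to 0.043 without Ctrl 1 and to 0.22 without Ctrl 2, and NF1 to 0.047 with rGAL1 2 counted as a control. The largest difference of the list was negative: MAP2K2, which encodes MEK2 and is named here after its values were seen, measured 5.49 and 6.03 in rGAL1, against 5.95 and 6.02 in Ctrl (difference -0.23), with overlapping groups. Of 7 transcription factors (SRF, MRTFA, MRTFB, ETS1, ETS2, CIC and CREB1), 2 were higher and 5 lower, with SRF itself at -0.033. MRTFA, the actin-controlled SRF partner, measured 6.75 and 6.76 in rGAL1, against 6.97 and 7.02 in Ctrl (difference -0.24, 95% interval -0.50 to 0.014).

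Of 19 other early and ERK target genes, 8 were higher and 11 lower, with a median of -0.055, and 5 were separated upward and 8 downward (68.4% of the 19, against 37.2% of all named genes). This list held 39 genes, and the rest were not among the named genes. Because it was chosen with earlier results known, the share is a description and no independent evidence. EREG, an EGFR ligand, was the 1 gene of the 3 lists at an unadjusted p under 0.05 in the main fit. EREG had a difference of 0.41 (SE 0.15, 95% interval 0.027 to 0.80, not adjusted for the number of genes) and did not pass (limma, adjusted p = 0.919). Its means, 5.67 in rGAL1 and 5.26 in Ctrl, lay above the dim level of 4.70 but near those of the endocrine marker SST (5.36 and 5.39). EREG measured 5.83 and 5.51 on the rGAL1 arrays, against 5.32 and 5.20 on the Ctrl arrays, and the difference was 0.25 without rGAL1 1 and 0.58 without rGAL1 2. CCN2, an SRF and YAP target, measured 6.68 and 6.49 in rGAL1, against 6.81 and 6.95 in Ctrl (difference -0.30, 95% interval -0.62 to 0.026). That value was -0.18 with its probe sets averaged and -0.073 with rGAL1 2 counted as a control. EPHA2, a receptor induced by ERK, measured 9.09 and 9.14 in rGAL1, against 9.33 and 9.36 in Ctrl (difference -0.23, 95% interval -0.48 to 0.029). The groups of these 3 genes did not overlap, EREG upward and the others downward. Over the 42 measured genes of the lists, 20 were separated (47.6%, against 37.2% of all named genes), 10 in each direction. The same limit of choice applies to this share.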

How the data were processed

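The 4 values per probe set (1 for each array) were taken from the deposited table; each came from 100 ng of labelled total RNA, per the labels' protocols. The deposited values are log2 expression, made by the authors with RMA per the submitters' processing notes, which name RMA and limma without a version or settings. RMA normalizes between arrays and compresses differences of dim probe sets. Titles gave each array its group and number.

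All 53617 probe sets were fitted with limma 3.58.1, run in R 4.3.3 (functions lmFit and eBayes, 2 residual and 2.75 prior degrees of freedom, no block), two-sided, with Benjamini-Hochberg adjustment over all of them. The script was tested on simulated data. Of 16098 named probe sets, the brightest represented each gene; the members had 82 probe sets, and all 67 matched a RefSeq record with the same symbol. The number of arrays limits the precision, and the table gives no detection call. Members and lists were chosen with earlier results of these data known. Named were every FOS, JUN, EGR, IER, SPRY and ETV member, the MAP kinase phosphatases and the members matched by symbol alone. The 8 largest differences in each of the atypical DUSP and KLF families were named too. Of the pathway lists, those under an unadjusted p of 0.05 and the 3 largest per direction were named. MAP2K1, MAPK3 and SRF were added for their roles, and MAP2K2 after its values were seen. KLF6 and KLF10 were named for their roles without values, and EGR2 and SPRY1 only as not analysed. Same-numbered arrays did not deviate together (r = -0.048), so the numbers were not taken to pair them. Alternatives covered scaling, dim probe sets, the variance prior, a replicate block, the disputed label, averaging of probe sets and leaving out each array. No promoter entry was used for EGR3, FOSL1, IER3, DUSP4, DUSP5, DUSP12, DUSP13A, DUSP26, ETV4, ETV5, ETV7, KLF3, KLF10, KLF3-AS1 and IER3IP1.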

Additional observations from a re-analysis of the deposited data

How the results depend on the processing

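With limma, 0 probe sets and 0 members passed an adjusted p under 0.05 in each alternative, the replicate block (0) and the fits without 1 array (0 to 0) included; an unadjusted p under 0.05 gave 2807 probe sets. At that unadjusted threshold the count of members, 0, was 1 (ETV5) with dim probe sets left out and 4 (FOSL1, SPRY2, DUSP8 and ETV5) with a variance prior that follows intensity, where 4.81% and 4.31% of named genes were under it. It was 0 to 1 without single arrays (DUSP21 without Ctrl 1, KLF8 without Ctrl 2). The cause of these moves was not tested. Without single arrays the median difference ran from 0.0015 to 0.040 over all members (the lowest without Ctrl 1), from 0.0082 to 0.067 for immediate early factors, -0.0057 to 0.025 for phosphatases, -0.029 to 0.087 for Sprouty genes, 0.066 to 0.11 for ETS factors and -0.13 to 0.036 for KLF factors. Centring the arrays on their medians, which moved members by at most 0.014, put the ETS median at 0.11. With rGAL1 2 counted as a control it was 0.056 and the KLF median -0.13. The sign of 4 members turned with a scaling (FOS, SPRY4, DUSP7 and DUSP13A). Leaving out each array in turn kept the sign in 33 of 67 members, and moved or turned the difference by over 1.5 times in 59. The 33 include all 25 separated members, whose sign cannot turn when 1 array is left out. Separation of arrays has no like value in groups of 1 array, so it was not recomputed there; a fit with 1 array in a group assumes that it varies like the other group.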
